A study of Mus musculus with 18 samples.

Results

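This account sets the response of the mouse kidney at 48 h after D-galactosamine (GalN) against the response of the liver at the same time. The members were the 12 arrays of 4 groups out of 18 arrays in all, chosen by sample title, with 3 arrays each for kidney sham, kidney 48 h, liver sham and liver 48 h. For each gene the kidney minus liver difference was computed as kidney at 48 h minus kidney sham, less liver at 48 h minus liver sham, on the log2 scale. It was tested for 9960 of 18193 genes on the array, 54.7%, those that lay more than 1 above the lowest value of the table (2.21) in at least 3 of the 6 arrays of each organ. All animals were male C57BL6 mice. The 48 h mice received GalN at 4.5 g/kg as an intraperitoneal injection, and the sham mice received saline. Sham organs were taken at 24 h, so the 48 h groups differ from sham in time after injection as well as in GalN, and the effects of time and GalN cannot be told apart. Another pair of groups, liver and kidney at 24 h after the same dose, entered the fit and are given beside the results where the times are compared. The organs were perfused in situ with PBS and RNA Later, and RNA came from whole kidney and part of the liver, measured on an Affymetrix array of the whole mouse genome.

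GalN is a hepatotoxin. Hepatocytes take it up and convert it through the galactose pathway, which traps uridine nucleotides as UDP-sugars, blocks RNA and glycoprotein synthesis and leads to hepatocyte death. The kidney is examined in such models because liver failure is often followed by renal dysfunction. Liver and kidney share much of their metabolism, including gluconeogenesis, organic anion transport and part of amino acid breakdown, whereas plasma proteins, such as alpha-1-antitrypsin and fibrinogen, are made chiefly by hepatocytes. In bulk tissue, fewer cells of a type and less RNA per cell cannot be told apart.

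The labelled organs carried their defining markers. The mean of 11 proximal tubule markers was 13.9 to 14.2 in the kidney arrays and 5.08 to 5.42 in the liver arrays, and the mean of 12 hepatocyte markers was 15.0 to 15.4 in liver and 6.97 to 7.17 in kidney. By its actin controls and by its SD against the other arrays of its group, 1 array stood apart. Array C of liver at 48 h read 12.6 for the 3′ actin control set, against 14.3 to 15.0 in the other 17 arrays, and its gap between the 3′ and 5′ actin sets was 2.56, against 1.48 to 2.02 elsewhere. Its SD over genes against the mean of the other 2 arrays of its group was 0.739, against 0.252 to 0.529 elsewhere. Array A of liver sham stood apart in some cell type markers: the mean of 7 cholangiocyte and progenitor markers was 6.19, against 4.14 and 4.38 in the other sham livers, with Cd24a at 10.77 against 5.09 and 4.94, Krt19 at 6.94 against 3.84 in both, and Acta2, smooth muscle actin, at 10.53 against 7.17 and 7.44. The part of those markers in the liver differences was not tested. Counts and calls that move much without array C of liver at 48 h are given both ways. Readings below 3.21, and readings repeated to the last digit in another array, were taken as background, where a change is a bound, given as at least or at most where the bound runs one way. Nothing in the labels says whether a letter marks the same mouse in both organs, and p-values measure only the spread between these arrays. That number of arrays limits the precision of every value.

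The organs differed in their response at 1500 of 9960 genes, 15.1% (limma, Benjamini-Hochberg adjusted p under 0.05, used for every call). The difference was above 0 for 488 genes (4.9%), meaning a change further upward in kidney than in liver, and below 0 for 1012 genes (10.2%). It reached at least 1 on the log2 scale in either direction for 997 genes and at least 2 for 153. Within the organs, the liver changed at 2330 genes (23.4%), with 1493 higher (15%) and 837 lower (8.4%) at 48 h, while the kidney changed at 109 genes (1.09%), with 57 higher (0.572%) and 52 lower (0.522%). The fit shares the spread of each gene across all groups, so kidney calls also depend on the liver arrays. Kidney calls numbered 187 without array C of liver at 48 h. They were far more with array weights. Among genes with a called difference, 248 then rose and 227 fell in kidney without a call in liver, against 33 and 25 in the main fit. By separation of arrays alone, all 3 kidney arrays at 48 h lay above all sham arrays for 1204 genes and below for 1768. In liver these numbers were 1981 and 1139. The change in liver was the larger of the pair for 1273 of the 1500 genes. The median difference over all tested genes was -0.08, and its sign depended on scaling: it was 0.01 after quantile normalization and 0.06 after median centring. The split of calls moved with it, from 488 above and 1012 below 0 to 611 and 748 after quantile normalization (1359 in all) and 703 and 643 after median centring (1346 in all). Without array C of liver at 48 h, 1951 genes were called, without array A of kidney sham, 1008, and without array A of liver sham, 1508.

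**Figure D1:**
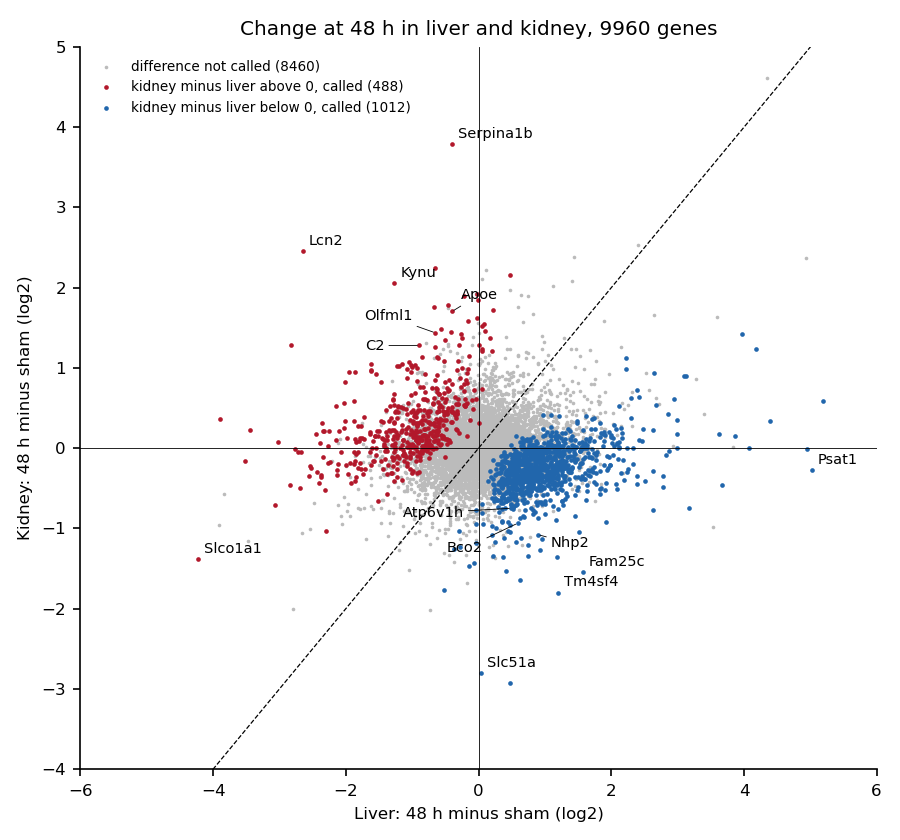
Each point is 1 of the 9960 tested genes, with its change from sham to 48 h in liver on the horizontal axis and in kidney on the vertical axis, both log2. The dashed line marks equal change, red points (488) have a called difference above 0, blue points (1012) a called difference below 0, and grey points (8460) no called difference. The called points spread further along the liver axis than along the kidney axis.

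Most called differences paired a called change in liver with no call in kidney: 844 genes rose in liver and 378 fell in liver. The reverse, a call in kidney without one in liver, held for 33 genes that rose and 25 that fell in kidney, and 198 genes were called in neither organ alone. Opposite calls were found for 19 genes, 10 that rose in kidney and fell in liver and 9 that fell in kidney and rose in liver. A call in the same direction in both organs with a called difference was found for 3 genes, and 12 genes were called in the same direction in both organs without a called difference.

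The genes that rose in kidney and fell in liver were Serpina1b, Kynu, C2, Apoe, Olfml1, Reep6, Car14, Dhtkd1, Man2b1 and B2m. The first 5 are described here as those with the largest differences, and Serpina1b, an isoform of the protease inhibitor alpha-1-antitrypsin, had the largest. Its kidney values were 4.11, 4.06 and 4.06 in sham and 7.94, 7.85 and 7.82 at 48 h, and its liver values were 15.70, 15.66 and 15.66 in sham and 15.32, 15.33 and 15.16 at 48 h. All 3 kidney arrays at 48 h lay above all sham arrays and all 3 liver arrays below, with kidney still far under liver. The kidney rise was at least 13.9-fold, the liver fall 1.32-fold, and the difference at least 4.20 (SE 0.16, adjusted p = 1.96e-09). The Serpina1 genes are near-identical copies, so which copy gave the signal is uncertain.

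Kynu encodes kynureninase, an enzyme of tryptophan breakdown. Its kidney values were 6.03, 6.03 and 5.12 in sham and 8.02, 7.66 and 7.66 at 48 h, and its liver values 12.57, 12.31 and 11.82 in sham and 11.01, 10.87 and 11.02 at 48 h. The groups did not overlap in either organ. The difference was at least 3.33 (SE 0.43, adjusted p = 0.000341), from a kidney rise of at least 4.17-fold and a liver fall of 2.41-fold.

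C2, complement component 2, read 7.79, 7.97 and 8.17 in sham kidney and 9.21, 9.23 and 9.33 in kidney at 48 h. In liver it read 10.48, 10.72 and 11.24 in sham and 9.71, 10.22 and 9.84 at 48 h. The groups did not overlap in either organ, and the gap between kidney and liver means narrowed from sham to 48 h. The difference was 2.17 (SE 0.26, adjusted p = 0.000236).

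Apoe, the lipoprotein ligand apolipoprotein E, read 10.46, 10.32 and 10.53 in sham kidney and 12.13, 12.32 and 11.98 at 48 h, a 3.26-fold rise (adjusted p = 4.93e-06). In liver the values were 15.40, 15.43 and 15.42 in sham and 15.08, 15.13 and 14.84 at 48 h. The kidney groups stood far apart and the liver groups were separate by a small step, 1.32-fold lower. The difference was 2.10 (SE 0.18, adjusted p = 4.52e-05).

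Olfml1, a secreted olfactomedin-like protein, rose in kidney from 5.47, 5.47 and 5.35 to 7.13, 6.71 and 6.76. Its liver values were 8.94, 8.92 and 8.21 in sham and 8.35, 7.81 and 7.95 at 48 h, which overlap. The difference was at least 2.09 (SE 0.28, adjusted p = 0.000412). Without array C of liver at 48 h, the liver fall was no longer called for Serpina1b (adjusted p = 0.0526), Apoe (0.101) or Olfml1 (0.0572), while it was for Kynu and C2, which were called in opposite directions in all 18 fits that each left out 1 array. Over those fits Serpina1b was opposite in 14, Apoe in 13 and Olfml1 in 14.

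The other 5 had smaller differences. Reep6, an endoplasmic reticulum shaping protein, differed by 2.00, Car14, a membrane carbonic anhydrase, by 1.91, Dhtkd1, a mitochondrial dehydrogenase of lysine breakdown, by 1.77, and Man2b1, the lysosomal alpha-mannosidase, by 1.51. B2m, the light chain of class I antigen-presenting molecules, differed by 0.87, with 13.54, 13.64 and 13.67 in sham kidney, 14.04, 14.23 and 13.98 in kidney at 48 h, 15.45, 15.51 and 15.41 in sham liver and 15.14, 15.12 and 14.91 in liver at 48 h. No arrays of B2m overlapped between groups in either organ. Of the 18 fits without 1 array, Car14 was opposite in 15, Reep6, Man2b1 and B2m in 14 and Dhtkd1 in 12. Of these genes, Reep6, Car14, Dhtkd1 and Man2b1 lie outside the rule by which genes were named and are given because the class is small.

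The genes that fell in kidney and rose in liver were Fam25c, Tm4sf4, Nhp2, Bco2, Atp6v1h, Tfam, Znrf2, Pdhx and Selenot. Fam25c, a small protein of unsettled role, read 10.35, 9.98 and 9.58 in sham kidney and 8.69, 8.55 and 8.05 at 48 h, and 9.65, 10.36 and 10.15 in sham liver and 11.67, 11.81 and 11.38 at 48 h. The organs started near the same level and moved apart, without overlap in either. The kidney fall was 2.91-fold, the liver rise 2.96-fold, and the difference -3.11 (SE 0.37, adjusted p = 0.000234). The opposite calls held in 16 of 18 fits without 1 array.

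Tm4sf4, a tetraspan membrane protein of liver and gut epithelium, read 5.59, 5.28 and 6.36 in sham kidney and 4.04, 3.54 and 4.23 at 48 h, and 10.82, 10.45 and 10.72 in sham liver and 11.33, 12.20 and 12.01 at 48 h. No groups overlapped, and kidney stayed well below liver throughout. The difference was -2.99 (SE 0.48, adjusted p = 0.00119) and can only be larger in size, since a kidney reading at 48 h was at background. Tm4sf4 was opposite in 13 of 18 fits without 1 array.

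Nhp2, a core protein of the box H/ACA particles that modify ribosomal RNA, read 11.65, 11.43 and 11.64 in sham kidney and 10.77, 10.40 and 10.32 at 48 h, and 10.59, 10.38 and 9.89 in sham liver and 11.12, 10.97 and 11.46 at 48 h. Kidney was the higher organ in sham and the lower one at 48 h. The difference was -1.97 (SE 0.27, adjusted p = 0.000422). Bco2, the mitochondrial carotenoid-cleaving dioxygenase, read 5.13, 4.57 and 4.46 in sham kidney and 3.78, 3.78 and 3.79 at 48 h, against 5.62, 5.09 and 5.07 in sham liver and 5.84, 5.92 and 5.78 at 48 h. Its groups were apart in both organs, its kidney readings at 48 h were at background, and its difference of -1.52 (SE 0.26, adjusted p = 0.00199) is a bound. Without 1 array, Nhp2 was opposite in 15 of 18 fits and Bco2 in 9.

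Atp6v1h, a regulatory subunit of the proton pump that acidifies vesicles, read 12.17, 11.95 and 11.91 in sham kidney and 11.33, 11.25 and 11.20 at 48 h. In liver it read 10.82, 10.48 and 10.65 in sham and 11.18, 11.12 and 11.13 at 48 h. The organs, well apart in sham, were close at 48 h. The difference was -1.24 (SE 0.15, adjusted p = 0.000282) and was opposite in all 18 fits without 1 array, but with the mean of all probe sets of the gene in place of the brightest it was -0.33 and not called (adjusted p = 0.0769). Tfam, which packages and transcribes mitochondrial DNA, differed by -1.09, Znrf2, a ubiquitin ligase, by -1.08, Pdhx, a pyruvate dehydrogenase component, by -0.94, and Selenot, a selenoprotein of the endoplasmic reticulum, by -0.93. These 4 also lie outside the naming rule, and they were opposite in 13, 14, 11 and 7 of 18 fits, in that order. Median centring changed the numbers of opposite genes from 10 to 17 for kidney up and from 9 to 4 for kidney down. Leaving out single arrays gave 6 to 15 and 2 to 27. The count for kidney up was 6 without array B of kidney at 48 h or array A of liver sham. Kidney down was 27 without array C of liver at 48 h, 2 without array C of kidney at 48 h or array A of kidney sham, and 3 to 5 without array B of kidney at 48 h or array B or C of kidney sham.

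**Figure D2:**
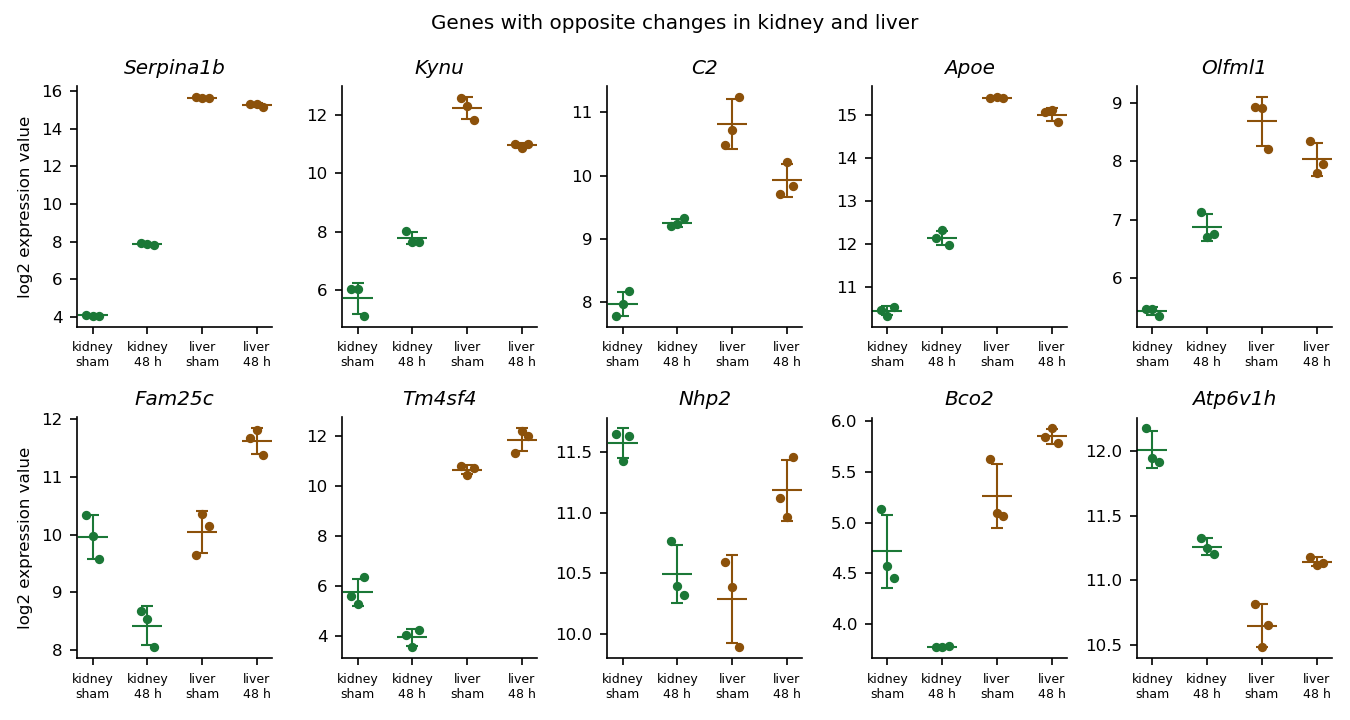
Log2 expression values of the 10 named genes with opposite calls, one panel per gene, with kidney in green and liver in brown; points are single arrays, horizontal bars the mean of 3 arrays and error bars 1 SD. In the top row kidney rises and liver falls, for Serpina1b from a kidney mean of 4.07 to 7.87, and in the bottom row kidney falls and liver rises, with no overlap except in the liver values of Olfml1.

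Among the kidney changes with no call in liver, several of the rises were of genes read far higher in liver than in kidney. Ang, the ribonuclease angiogenin, read 3.09, 3.97 and 4.04 in sham kidney and 6.21, 5.68 and 5.94 at 48 h, with 14.42, 14.56 and 14.60 in sham liver and 13.94, 13.94 and 13.72 in liver at 48 h. The kidney arrays did not overlap, and the difference was at least 2.90 (SE 0.56, adjusted p = 0.00393). The kidney call of Ang was lost without array A or C of kidney at 48 h or array A of kidney sham. Rnase4, a related ribonuclease, read 7.78, 7.14 and 7.47 in sham kidney and 8.98, 9.18 and 8.98 at 48 h, a rise of 3.00-fold without overlap. Its difference was 1.75 (adjusted p = 0.00155), and its kidney call held whichever array was left out.

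The reference gives Ang and Rnase4 a promoter window in common, from 250 bases before to 50 after the start. Its use in either organ was not tested. It is printed here because both genes rose in kidney. The window lies at chr14:51090827-51091126 on the plus strand (RefSeq, build GRCm38.p6), and holds none of the 3 motifs searched below, so no base is in capitals.
Ang and Rnase4: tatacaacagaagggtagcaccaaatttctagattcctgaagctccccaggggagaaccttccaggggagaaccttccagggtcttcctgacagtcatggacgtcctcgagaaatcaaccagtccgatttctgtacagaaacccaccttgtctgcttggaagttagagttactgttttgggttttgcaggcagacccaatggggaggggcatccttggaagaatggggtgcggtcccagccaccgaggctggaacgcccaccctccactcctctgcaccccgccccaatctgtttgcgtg

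Other transcripts of this kind rose in kidney as well. Hpd, which degrades tyrosine, read 9.67, 9.71 and 9.41 in sham kidney and 10.44, 11.36 and 12.27 at 48 h, with a wide spread at 48 h and no overlap. Its difference was 2.43 (SE 0.47, adjusted p = 0.00403), and its kidney call was lost in 5 of 18 fits without 1 array. Fgg, the fibrinogen gamma chain, read 8.40, 8.27 and 8.03 in sham kidney and 8.99, 8.97 and 9.05 at 48 h, a rise of 1.70-fold in which the arrays were separate, and a difference of 1.03 (SE 0.15, adjusted p = 0.000605). Cyp2d26, a cytochrome P450 with several close relatives, read 12.60, 12.86 and 12.90 in sham kidney and 14.13, 14.15 and 14.35 at 48 h. That is a rise of 2.68-fold, and the difference was 1.69 (SE 0.19, adjusted p = 0.000198). Its relatives Cyp2d22 and Cyp2d9 differed by 1.86 and 1.30, the kidney call of Cyp2d9 was lost in 5 of 18 fits, and cross-reading between members of this family was not tested. Mgst1, a membrane glutathione transferase, differed by 1.40 (adjusted p = 0.000199), and Gjb1, the gap junction protein connexin 32, by 2.05, though the kidney call of Gjb1 was lost in 13 of 18 fits.

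Hepatocyte markers are given beside these genes. Ahsg, Ambp, Cps1 and Cyp3a11 were at background in all 6 kidney arrays, and Alb read 8.08, 8.44 and 8.18 in sham kidney and 7.45, 8.04 and 7.81 at 48 h. Other markers had higher means at 48 h without a call in kidney. Apoc3, an apolipoprotein, read 9.23, 8.19 and 7.83 in sham kidney and 8.93, 8.83 and 9.34 at 48 h, and Apoa2, another, 8.49, 7.85 and 7.87 and then 8.27, 8.44 and 8.64. Fgb, the fibrinogen beta chain, read 2.38, 2.57 and 2.57 in sham kidney and 3.51, 3.09 and 3.14 at 48 h, at background in all but 1 of these arrays, and was not tested. The mean of the 12 markers was 6.97 to 7.15 in sham kidney and 7.10 to 7.17 at 48 h, so the kidney ranges overlapped. That mean rests largely on Ttr, Cyp2e1 and Hnf4a, with sham kidney means of 15.3, 15.2 and 13.8. Of the 6 hepatocyte markers tested, 0 were called in kidney. With 1.09% of all genes called there, so short a list cannot be told from other genes. The part of hepatocyte RNA in the kidney rises was not tested.

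Rises of genes at or near background in liver formed another set. Ackr4, a scavenging chemokine receptor, read 3.72, 4.03 and 3.81 in sham kidney and 5.73, 6.0 and 5.6 at 48 h, a rise without overlap (adjusted p = 3.67e-06), with a difference of 1.95 (SE 0.19). Atp6v1b1, the proton pump subunit of acid-secreting intercalated cells, read 6.41, 6.16 and 6.15 in sham kidney and 8.15, 7.53 and 7.67 at 48 h, again without overlap, with a difference of 1.46 (SE 0.20, adjusted p = 0.000442). Kcnj10, a basolateral potassium channel of the distal nephron, read 6.5, 5.34 and 5.28 in sham kidney and 7.36, 7.46 and 7.86 at 48 h. Its difference was 1.87 (adjusted p = 0.00302). Blnk, an adaptor of B cell receptor signalling, rose by 1.52. For these 4 genes the liver readings were 4.40 or below, at or near background in both liver groups, so the differences describe kidney alone.

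Kidney falls without a call in liver included Slc51a, a subunit of the basolateral bile acid and steroid exporter. It read 10.85, 10.45 and 10.57 in sham kidney and 8.14, 7.67 and 7.64 at 48 h, 7.0-fold lower and without overlap, and was at background in liver. The difference was -2.84 (SE 0.66, adjusted p = 0.0103). Serpinc1, antithrombin, read 7.83, 8.30 and 7.27 in sham kidney and 5.72, 6.38 and 6.0 at 48 h, a separate and 3.40-fold lower group. This direction is opposite to that of Serpina1b and Fgg, which are also plasma proteins. The difference was -1.24 (SE 0.29, adjusted p = 0.0114).

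Odc1, the first enzyme of polyamine synthesis, was among the brightest signals in kidney. Its values were 15.98, 15.93 and 15.95 in sham and 15.33, 14.94 and 14.83 at 48 h, 1.89-fold lower without overlap, and liver read 13.36 on average in sham and 13.71 at 48 h. The difference was -1.27 (adjusted p = 0.00119). Mtrex, the helicase of the nuclear RNA exosome, read 10.96, 10.89 and 10.73 in sham kidney and 9.57, 9.60 and 9.35 at 48 h and differed by -1.72 (adjusted p = 0.000721). Both kidney groups were tight and far apart. Mfsd2a, a lysophospholipid transporter, had the largest kidney fall in size, -2.93, but was called in 11 of 18 fits without 1 array. The kidney genes of these 5 paragraphs other than Ang, Hpd, Fgg, Cyp2d26, Cyp2d9, Atp6v1b1 and Slc51a were chosen after their values were seen. Of the 109 kidney calls, 107 held without array C of liver at 48 h and the other 2, Cyp2j13 and Rsph9, were not tested there. In the fits without 1 array, 29 held wherever they were tested, Cyp2j13 and Rsph9 in 15 fits and the others in 18. Their number was 187 without array C of liver at 48 h, 46 without array C of kidney at 48 h or array A of kidney sham, and 50 without array B of kidney at 48 h or array B of kidney sham.

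Where both organs moved the same way, 3 genes still differed. Slco1a1, an organic anion uptake transporter, read 11.87, 11.82 and 12.42 in sham kidney and 10.17, 10.82 and 10.94 at 48 h, and 11.98, 11.53 and 11.74 in sham liver and 7.97, 7.10 and 7.49 at 48 h. Both organs fell without overlap from like levels, 2.61-fold in kidney and 18.8-fold in liver. The difference was 2.84 (SE 0.40, adjusted p = 0.000506). Slc22a30, of the organic ion transporter family, fell by 1.04 in kidney and by 2.31 in liver. The kidney call was lost in 6 of 18 fits without 1 array for Slco1a1 and in 8 for Slc22a30. Cirbp, a cold-induced RNA-binding protein, rose by 1.13 in kidney and 2.22 in liver, and its difference of -1.09 was lost in 7 of 18 fits without 1 array and its kidney call in 4. The number of such genes was 0 without array B or C of kidney at 48 h or array A of kidney sham.

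For the genes called the same way in both organs without a called difference, the interval of the difference is what the data give. Retsat, retinol saturase, rose by 1.08 in kidney and 1.01 in liver, and Sh3bgrl3, a thioredoxin-fold protein, by 0.92 and 0.96. Stra6l, a retinol-binding protein receptor, read 6.30, 6.44 and 6.32 in sham kidney and 4.94, 5.26 and 5.35 at 48 h, and 11.75, 11.66 and 11.84 in sham liver and 10.27, 10.76 and 10.65 at 48 h. The groups were apart in both organs by steps of like size, and the difference was 0.02 with a 95% interval from -0.52 to 0.56. Rgn, the calcium-binding protein regucalcin, fell by 1.10 in kidney and 1.37 in liver, with an interval from -0.28 to 0.81. Acnat2, a fatty acid conjugating enzyme, and Cbr1, a carbonyl reductase, also rose in both, and Idi1, of sterol synthesis, and Afm, a vitamin E carrier, fell in both. The kidney call was lost in 13 of 18 fits without 1 array for Cbr1, 8 for Retsat, 6 for Idi1, 5 for Acnat2 and Afm and 4 for Sh3bgrl3, and in 0 for Stra6l and Rgn. The liver call of Cbr1 was lost without array C of liver at 48 h or array C of liver sham.

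Called differences of 3 or more above 0 outside the opposite class came mostly from falls in liver, and those of Lcn2 and Hsd3b5 were larger than that of Serpina1b. Lcn2, lipocalin 2, a secreted marker of both tubular injury and the acute phase, read 4.62, 4.46 and 2.70 in sham kidney and 7.38, 6.46 and 5.31 at 48 h, and 11.46, 13.45 and 14.13 in sham liver and 10.12, 9.81 and 11.17 at 48 h. No groups overlapped, but the spread was wide, with sham liver spanning over 2 on the log2 scale. The difference was at least 5.11 (SE 1.21, adjusted p = 0.0117), the liver fall was called (adjusted p = 0.0372) and the kidney change of 2.46 was not (adjusted p = 0.22). Hsd3b5, a liver steroid reductase, read 13.11, 12.94 and 13.47 in sham liver and 9.86, 9.23 and 8.73 at 48 h, with kidney near background, and differed by 4.26.

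Habp2, a plasma hyaluronan-binding protease, read 9.22, 9.47 and 9.21 in sham liver and 6.78, 6.82 and 3.96 at 48 h, where the lowest value is that of array C. Its kidney values ran from 8.36 to 8.95, and its difference was 3.67 (SE 0.74, adjusted p = 0.00505), or 2.72 without that array. Nsl1, a kinetochore protein, and Arhgap26 fell by 3.52 and 3.02 in liver and differed by 3.36 and 3.10. In these 5 genes other than Lcn2 the sham and 48 h values of kidney overlapped.

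The largest differences below 0 came from rises in liver. Acot9, a mitochondrial acyl-CoA thioesterase, read 10.67, 10.66 and 10.66 in sham kidney and 9.94, 10.11 and 10.55 at 48 h, and 6.01, 4.20 and 4.58 in sham liver and 8.63, 8.79 and 8.37 at 48 h. Liver rose to below the kidney level, and kidney at 48 h lay under sham without a call. The difference was -4.13 (SE 0.54, adjusted p = 0.000359). Csad, the taurine-forming decarboxylase, had the same pattern, with 12.58, 12.65 and 12.70 in sham kidney, 11.83, 11.92 and 11.93 at 48 h, 6.85, 5.93 and 6.76 in sham liver and 9.17, 10.67 and 9.20 at 48 h. It differed by -3.91 (SE 0.57).

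Other genes of this kind were at or near background in sham liver. Rps25, a ribosomal protein read here by a probe set that was at or near background in the other 9 of these arrays, rose in liver by 4.95, Bhlhb9, a transcription-factor-like protein, by 5.19, and Cbr3, a carbonyl reductase of the NRF2 programme, by 4.39. Afp, the fetal albumin that marks immature hepatocytes, read 7.95, 7.39 and 5.6 in sham liver and 10.36, 11.10 and 11.69 at 48 h and was near background in all kidney arrays. Clec7a, a beta-glucan receptor of myeloid cells, rose in liver by 3.86. Psat1, of serine synthesis, had the most negative difference, -5.30 (SE 1.27, adjusted p = 0.0122), with sham liver at 2.50, 2.50 and 2.27 and liver at 48 h at 7.38, 7.08 and 7.88. It was not tested in the 3 fits without an array of liver at 48 h, array C among them. It is 1 of 21 tested genes with a group wholly at background, which passed the restriction through the other group of that organ and so had to differ there. At the edge of the restriction, Mst1 entered with a third-highest value of 3.2137 and Epha5 stayed out with 3.2131.

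Gene lists give the difference by function. The 30 pathway lists and 15 cell type lists hold 736 entries, 672 on the array and 528 tested, and were chosen with earlier results of these data known, so their counts are descriptions. They are read against 4.9% of all genes above 0 and 10.2% below 0. Those shares belong to the main fit. Without array C of liver at 48 h, 616 genes were called above 0 and 1335 below, against 488 and 1012. List counts given without that array are to be read against that general increase in calls. Medians over all genes were -0.08 for the difference, -0.01 for the kidney change and 0.06 for the liver change. Calls within liver are read against 15% of all genes rising and 8.4% falling. In kidney these shares were 0.572% and 0.522%, so a list with no kidney call cannot be told from all genes.

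**Figure D3:**
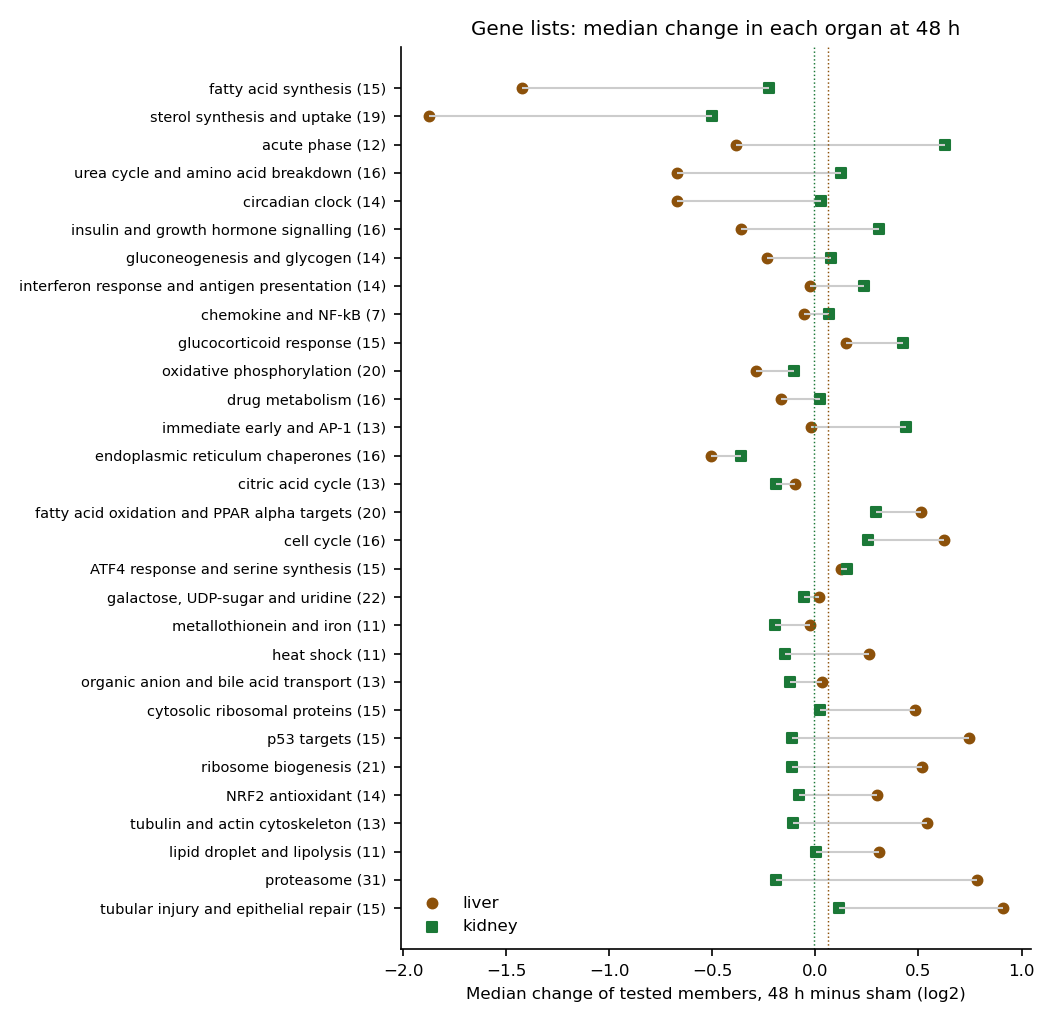
Median change from sham to 48 h (log2) of the tested members of each pathway list, in liver (brown circles) and kidney (green squares), with the number of tested members in parentheses and dotted lines at the medians of all tested genes. Liver medians run from -1.87 for sterol synthesis to 0.91 for tubular injury and repair genes, while kidney medians lie between -0.50 and 0.63.

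The proteasome is the protease complex that degrades ubiquitin-tagged proteins, made of a core of alpha (Psma) and beta (Psmb) subunits and a cap of ATPases (Psmc) and other subunits (Psmd). All 31 subunits on the list were tested, and the difference was below 0 for 24 and above 0 for 0. The liver rose for 26 of 31 and the kidney was called for 0. The median change was 0.78 in liver, -0.19 in kidney and -0.91 in the difference. In 25 of 31 subunits all 3 liver arrays at 48 h lay above all sham arrays, against 19.9% of all genes, and in 21 of 31 all 3 kidney arrays at 48 h lay below all sham arrays, against 17.8% of all genes. The count of 24 was 24 after quantile normalization, 19 after median centring, and 27 without array C of liver at 48 h.

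Psmc6, a cap ATPase, read 11.04, 10.94 and 10.91 in sham kidney and 10.50, 10.63 and 10.64 at 48 h, and 11.30, 11.39 and 11.17 in sham liver and 12.68, 12.12 and 12.31 at 48 h. The groups were apart in both organs and moved opposite ways, though the kidney change was not called (adjusted p = 0.244). The difference was -1.46 (SE 0.19, adjusted p = 0.000384). Psma2 of the core read 12.16, 12.15 and 12.01 in sham kidney, 12.003, 11.89 and 11.85 at 48 h, 12.17, 12.12 and 11.92 in sham liver and 13.12, 13.03 and 13.00 at 48 h. Its sham levels were alike in both organs, and at 48 h liver was the higher by about the whole liver rise. The difference was -1.17 (SE 0.15, adjusted p = 0.000359). Psmc3, another ATPase, differed by -1.16 and Psmd14, the deubiquitinating subunit, by -1.63, which was chosen after its value was seen.

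Promoter windows of the proteasome genes were searched for TGACNNNGC, the core of the antioxidant element bound by NRF2-type factors, on both strands. A match was found in 4 of 27 windows of 25 subunit genes, 14.8%, against 12.4% of all windows and 14.7% of the windows of tested genes. In the NRF2 list below it was found in 6 of 15 windows, 40%. The windows of 3 subunits with a match and a called difference are shown, with the match in capitals: Psmc6 at chr14:45329574-45329873 on the plus strand (match starting at -227), Psmb5, a catalytic core subunit, at chr14:54617946-54618245 on the minus strand (-47), and Psmb6, another catalytic subunit, at chr11:70525107-70525406 on the plus strand (-9).
Psmc6: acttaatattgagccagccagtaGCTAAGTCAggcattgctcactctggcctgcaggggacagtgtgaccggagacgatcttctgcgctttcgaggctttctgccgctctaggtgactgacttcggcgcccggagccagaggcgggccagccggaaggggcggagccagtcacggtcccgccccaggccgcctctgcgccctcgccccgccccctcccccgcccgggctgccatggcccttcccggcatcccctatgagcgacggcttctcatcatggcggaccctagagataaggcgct
Psmb5: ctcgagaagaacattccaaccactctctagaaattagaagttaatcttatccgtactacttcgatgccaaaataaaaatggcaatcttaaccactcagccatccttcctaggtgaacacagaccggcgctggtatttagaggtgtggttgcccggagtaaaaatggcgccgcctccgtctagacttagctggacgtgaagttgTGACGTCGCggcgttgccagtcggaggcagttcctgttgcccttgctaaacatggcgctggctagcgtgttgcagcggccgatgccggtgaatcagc
Psmb6: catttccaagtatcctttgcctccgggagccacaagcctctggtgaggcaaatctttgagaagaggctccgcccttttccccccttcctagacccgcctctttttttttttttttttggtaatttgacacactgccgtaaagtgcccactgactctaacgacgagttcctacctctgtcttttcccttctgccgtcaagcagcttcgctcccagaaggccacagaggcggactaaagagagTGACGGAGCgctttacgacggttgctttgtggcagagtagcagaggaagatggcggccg
The differences of Psmb5 and Psmb6 were -0.52 and -0.76. A match is a description of letters and not a bound site.

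Cholesterol is made through the mevalonate pathway, whose genes are switched on together by SREBP2 when sterol is low. Of 19 tested genes of sterol synthesis and uptake the difference was above 0 for 10 and below 0 for 0, with a median of 1.36. The liver fell for 18 of 19, with a median of -1.87. The kidney median was -0.50 and only Idi1 was called, from 13.00, 12.87 and 12.22 in sham to 11.38, 10.34 and 10.34 at 48 h. In 16 of 19 genes all liver arrays at 48 h lay below all sham arrays, against 11.4% of all genes, and in 9 of 19 all kidney arrays at 48 h lay below all sham arrays, against 17.8% of all genes.

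Stard4, a sterol transfer protein, read 10.42, 10.22 and 9.89 in sham kidney and 10.34, 10.12 and 9.91 at 48 h, and 11.75, 11.55 and 11.45 in sham liver and 9.27, 9.27 and 8.19 at 48 h. Kidney overlapped between groups and liver did not, with a 6.38-fold fall. The difference was 2.62 (SE 0.36, adjusted p = 0.000456). Cyp51, the lanosterol demethylase, differed by 2.19 (SE 0.32, adjusted p = 0.000713), and its kidney arrays at 48 h were all below sham, at 11.15, 11.36 and 11.01 against 11.86, 11.66 and 11.50. Ebp, a sterol isomerase, differed by 1.70. Of members without a called difference, Idi1 fell in both organs and differed by 0.79 (SE 0.61). Without array C of liver at 48 h the count above 0 was 8.

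**Figure D4:**
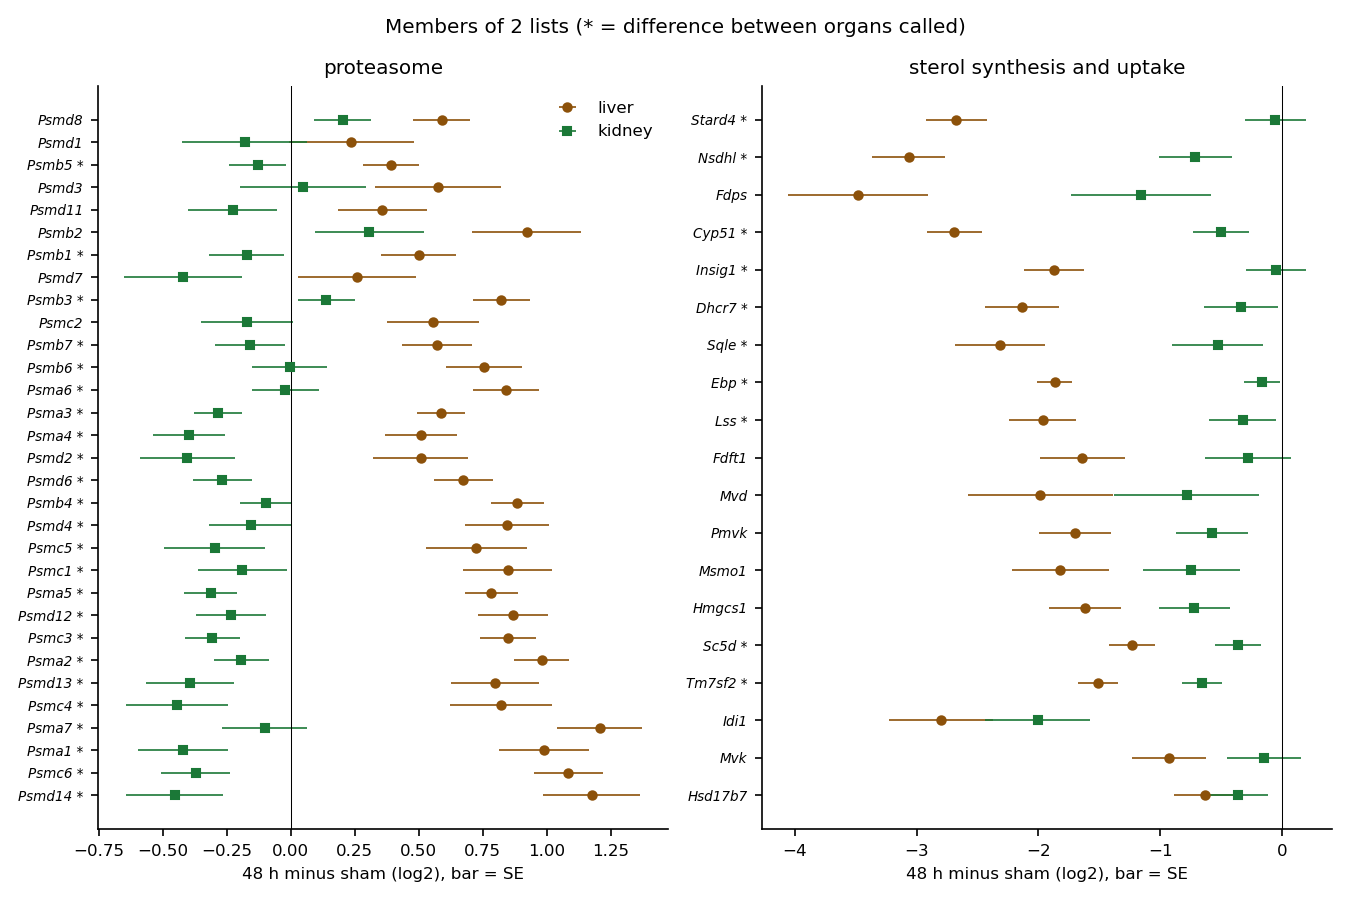
Change from sham to 48 h (log2) of each tested member of the proteasome list (left, 31 genes) and the sterol synthesis list (right, 19 genes), liver in brown circles and kidney in green squares, with bars of 1 SE from the fit; an asterisk marks a called difference between organs. Liver points lie right of 0 for the proteasome and left of 0 for sterol synthesis, and kidney points lie nearer 0, for Psmd14 at -0.45 against 1.18 in liver.

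Fatty acid synthesis genes moved like sterol genes in liver. Of 15 tested the difference was above 0 for 4 and below 0 for 0, with a median of 1.49, and the liver fell for 10 while the kidney was called for 0. Acacb, the acetyl-CoA carboxylase that restrains fatty acid import into mitochondria, read 6.17, 5.92 and 5.71 in sham kidney and 6.35, 7.11 and 6.82 at 48 h, and 8.53, 7.81 and 7.63 in sham liver and 5.82, 6.02 and 6.11 at 48 h. The arrays of both organs were separate between groups, in opposite directions, with only the liver called. The difference was at least 2.84 (SE 0.40, adjusted p = 0.000519). The desaturases Fads1 and Fads2 differed by 1.42 and 1.5. Scd1, the stearoyl-CoA desaturase, fell in liver by 3.83 but its kidney values ran from 9.75 to 12.66 in sham and from 8.63 to 12.58 at 48 h, and its difference of 3.27 was not called (adjusted p = 0.156).

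Fatty acid oxidation and PPAR alpha target genes were split. Of 20 tested, 1 was above 0 and 4 below, with a median of -0.07 that turned to 0.06 after median centring. Acot1, an acyl-CoA thioesterase, read 8.67, 8.81 and 9.18 in sham kidney and 9.81, 9.99 and 11.14 at 48 h, and 7.16, 7.31 and 7.61 in sham liver and 11.45, 11.43 and 11.11 at 48 h. Both organs were higher at 48 h without overlap, with only liver called, and the difference was -2.54 (SE 0.49, adjusted p = 0.00411). Acadm, the medium-chain acyl-CoA dehydrogenase, differed by -0.77 from a liver rise. Acaa2, a mitochondrial thiolase, rose in kidney by 0.62, a call lost in 5 of 18 fits without 1 array, and differed by 0.82. Pdk4, the kinase that spares glucose, rose by 3.60 in liver and differed by -1.97 without a call.

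Of 11 lipid droplet genes, 1 was above 0 and 2 below. Cd36, a fatty acid uptake receptor, read 13.07, 13.04 and 13.18 in sham kidney and 12.45, 12.62 and 12.68 at 48 h, and 9.50, 9.86 and 9.79 in sham liver and 12.03, 11.51 and 11.87 at 48 h. The organs moved towards each other without overlap in either, with only liver called, and the difference was -2.60 (SE 0.27, adjusted p = 0.000107). Abhd5, the activator of lipolysis, differed by -1.05. Lipe, hormone-sensitive lipase, differed by 2.66 (adjusted p = 0.0416), and Cidec, a droplet fusion protein, by -2.56 without a call. The fat cell gene Adipoq varied between kidney arrays, at 8.01, 7.07 and 3.75 in sham and 2.21, 11.41 and 9.42 at 48 h. Lipe read 5.78, 7.59 and 7.33 and Cidec 4.12, 9.78 and 8.43 in the same kidney arrays at 48 h, lowest in the array where Adipoq was lowest. The part of fat in these values was not tested. The call of Lipe was lost in 9 of 18 fits without 1 array, among them that without array C of liver at 48 h.

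Genes of the p53 response, which halts the cell cycle after damage, differed below 0 for 6 of 15 and above 0 for 1, with a median of -0.63. Cdkn1a, the cell cycle inhibitor p21, read 6.38, 6.45 and 6.36 in sham kidney and 6.40, 6.45 and 6.87 at 48 h, and 6.12, 6.36 and 6.25 in sham liver and 10.86, 10.92 and 7.82 at 48 h. Kidney overlapped between groups, and liver rose with array C lowest. The difference was -3.45 (SE 0.79, adjusted p = 0.00995), and -4.47 without that array. Aen, a p53-induced nuclease, differed by -2.10, Perp, a desmosome and apoptosis protein, by -1.44, and Ccng1, cyclin G1, by -0.88, which median centring did not call. Sesn2, a stress-induced inhibitor of growth signalling, was the member above 0, with 7.84, 7.84 and 8.40 in sham kidney and 9.15, 9.04 and 9.54 at 48 h. Its kidney rise of 1.21 came without one in liver, and the difference of at most 1.01 (adjusted p = 0.0411) was lost in 11 of 18 fits. Without array C of liver at 48 h the counts were 0 above and 8 below.

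NRF2 antioxidant genes differed below 0 for 3 of 14 and above 0 for 0, with a median of -0.70, and for 9 without array C of liver at 48 h. Nqo1, a quinone reductase, read 10.10, 10.13 and 9.94 in sham kidney and 10.05, 10.11 and 10.02 at 48 h, and 5.61, 6.44 and 5.36 in sham liver and 8.44, 8.35 and 7.60 at 48 h. Kidney arrays overlapped, and liver rose 5.02-fold without reaching the kidney level. The difference was -2.32 (SE 0.35, adjusted p = 0.000797). Abcc4, an efflux pump, differed by -2.14. Hmox1, heme oxygenase 1, rose in liver by 1.16 and differed by -1.48 without a call (adjusted p = 0.0564).

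Of 15 genes known from tubular injury and epithelial repair, the difference was below 0 for 5 and above 0 for 1, Lcn2. The liver rose for 8 and fell for 1, the kidney was called for 0, and the median difference was -1.01. Lgals3, the lectin galectin 3, read 9.96, 9.68 and 9.51 in sham kidney and 10.78, 11.08 and 10.97 at 48 h, and 5.99, 6.46 and 5.91 in sham liver and 9.03, 10.80 and 11.09 at 48 h. All arrays were higher at 48 h in both organs, with only liver called. The difference was -2.95 (SE 0.55, adjusted p = 0.00312). Tnfrsf12a, the TWEAK receptor, rose in liver by 2.63 and differed by -2.40. Havcr1, the kidney injury molecule KIM-1, read 2.90 to 3.34 over all 12 arrays and was not tested. Krt18, a keratin of simple epithelia, read 7.47, 7.65 and 7.04 in sham kidney and 8.71, 9.04 and 9.13 at 48 h, a separate but uncalled change of 1.57 (adjusted p = 0.0931). The count of 5 was 2 without array B of liver sham or array A of kidney sham and 3 without array C of kidney at 48 h.

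Genes of ribosome assembly differed below 0 for 5 of 21 and above 0 for 0, with a median of -0.68. The liver rose for 8 and the kidney was called for 0. Npm1, the nucleolar chaperone nucleophosmin, read 12.32, 12.50 and 12.27 in sham kidney and 12.30, 12.31 and 12.37 at 48 h, and 11.95, 12.14 and 12.20 in sham liver and 13.26, 13.39 and 12.78 at 48 h. Kidney overlapped and liver did not, with array C the lowest at 48 h, and the difference was -1.09 (SE 0.21, adjusted p = 0.00422). Nop56 and Nip7, which assemble ribosomal particles, differed by -1.14 and -1.29, and neither was called with the mean of all probe sets. The count of 5 was 12 without array C of liver at 48 h and 3 with the mean of all probe sets. Cytosolic ribosomal proteins differed below 0 for 5 of 15 and above 0 for 0, with a median of -0.54, and the liver rose for 11. Rpl7, Rplp2 and Rps9 differed by -0.60, -0.81 and -0.80. The count was 10 after quantile normalization and 0 after median centring. Rplp0, a ribosomal protein gene measured by the study to check its reference gene, differed by -0.23 (adjusted p = 0.192).

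Heat shock genes differed below 0 for 3 of 11, with 0 above and a median of -0.47. The count was 6 of 11, with a median of -0.72, without array C of liver at 48 h. Hspe1, the mitochondrial co-chaperonin, differed by -1.26, Hspb1, a small heat shock protein, by -2.33, and Hsp90aa1, the inducible cytosolic chaperone, by -1.62, which was lost in 8 of 18 fits without 1 array. Tubulin and actin genes differed below 0 for 4 of 13, with 0 above and a median of -0.74. Tuba4a, an alpha tubulin, is the member called in kidney, from 12.91, 12.83 and 12.42 in sham to 11.76, 11.63 and 11.69 at 48 h without overlap, while Tpm1, tropomyosin, rose in liver by 1.16. The differences of Tuba4a (-0.74), Tubb4b (-1.17) and Tpm1 (-1.44) were lost in 15, 8 and 7 of 18 fits. The count of 4 was 0 without array B of liver at 48 h, array C of kidney at 48 h, array C of liver sham or array A of kidney sham.

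Circadian clock genes differed above 0 for 4 of 14 and below 0 for 1, with a median of 0.87. Dbp, an output factor of the clock, read 11.85, 12.18 and 12.08 in sham kidney and 11.73, 11.64 and 11.67 at 48 h, and 12.81, 13.32 and 13.27 in sham liver and 11.02, 11.22 and 11.60 at 48 h. It was lower without overlap in both organs, with only liver called, and the difference was 1.5 (SE 0.30, adjusted p = 0.00472). Bhlhe40, a repressor of the clock, differed by 1.92, and Per2 and Tef, another output factor, by 1.16 and 0.86. Clock itself differed by -1.27, lost in 13 of 18 fits. Per1 differed by 0.87 without a call. The hour of necropsy is not in the labels, and the count of 4 was 2 with the 12 arrays alone and in 10 of 18 fits without 1 array.

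The E-box CACGTG, bound by the clock's activators, was found in 5 of 16 windows of 12 clock genes, 31.2%. It was found in 7.15% of all windows and 10.1% of those of tested genes. The matches were in windows of Ciart, Cry1, Per1 and Tef, with Tef counted more than once. The windows of Dbp and Clock, which had called differences, held none. Bhlhe40 and Per2, whose differences were also called, had no window among those searched. A link between E-box matches and the differences was not tested. The D-box TTATGTAA, bound by Dbp and its relatives, was found in 1 of 16, 6.25%, against 0.938% of all windows and 0.554% of those of tested genes. The window of Tef is shown since its difference was called and it holds an E-box (capitals, at -127), at chr15:81802423-81802722 on the plus strand.
Tef: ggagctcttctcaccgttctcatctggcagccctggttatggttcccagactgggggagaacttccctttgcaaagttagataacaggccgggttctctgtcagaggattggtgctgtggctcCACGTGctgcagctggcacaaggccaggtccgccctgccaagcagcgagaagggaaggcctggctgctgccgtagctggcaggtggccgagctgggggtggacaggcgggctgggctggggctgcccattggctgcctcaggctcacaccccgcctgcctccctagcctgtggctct

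Acute phase genes, secreted by hepatocytes in inflammation, differed above 0 for 4 of 12 and below 0 for 0, with a median of 1.10. Beside Lcn2 and Fgg, Cp, the copper carrier ceruloplasmin, read 7.84, 8.03 and 7.40 in sham kidney and 8.57, 8.60 and 7.98 at 48 h, and 13.82, 13.98 and 14.24 in sham liver and 13.50, 13.73 and 13.15 at 48 h. Neither organ was called alone, and the difference was 1.18 (SE 0.30, adjusted p = 0.0174). Saa1, serum amyloid A, was outside the restriction, with 2.22 to 2.29 in kidney and 12.54, 15.29 and 15.47 in sham liver and 10.92, 10.15 and 11.86 at 48 h. Its sham liver arrays were spread by more than 2, as were those of Lcn2, with array A lowest for both.

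Of 7 chemokine and NF-kB genes, 2 were below 0 and 0 above. These were the adhesion molecules Icam1, which differed by -1.94 (SE 0.38, adjusted p = 0.00421), and Vcam1, by -1.67, both from liver rises. Of 14 interferon and antigen presentation genes 1 was above 0, B2m, and 1 below, the interferon regulator Irf7, which differed by at most -1.71 and was lost in 7 of 18 fits. Of 15 glucocorticoid response genes 1 was above 0, Lcn2. Fkbp5, a glucocorticoid target, differed by -1.18 without a call, with sham liver at 8.27, 9.75 and 11.13. Of 11 metallothionein and iron genes 1 was above 0, Cp. Mt1, metallothionein 1, differed by -1.95 without a call, with sham liver at 8.14, 9.58 and 13.26.

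Urea cycle enzymes and genes that degrade amino acids differed above 0 for 8 of 16 and below 0 for 1, with a median of 0.99. The liver fell for 6 and the kidney rose for 2, Kynu and Hpd. Glud1, glutamate dehydrogenase, was below 0, at -0.60, with 14.82, 14.58 and 14.62 in sham kidney, 14.36, 14.36 and 14.37 at 48 h, 14.41, 14.45 and 14.49 in sham liver and 14.83, 14.81 and 14.58 at 48 h. Its arrays were apart in both organs with only liver called. The count of 8 was 4 without array C of kidney at 48 h or array B of liver sham, and 5 without array A or B of kidney at 48 h, array C of liver sham, or array A or B of kidney sham.

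Of 14 gluconeogenesis and glycogen genes 5 were above 0 and 1 below, with a median of 0.47. Fbp1, fructose bisphosphatase, read 14.67, 14.75 and 14.68 in sham kidney and 14.75, 14.85 and 14.80 at 48 h, and 14.86, 14.82 and 14.61 in sham liver and 13.77, 13.67 and 14.004 at 48 h. Kidney and liver had like levels in sham, and only liver fell, by 0.95. The difference was 1.05 (SE 0.15, adjusted p = 0.000701). Slc2a2, the glucose transporter GLUT2, differed by 1.5, and Pcx, pyruvate carboxylase, by 1.24. Igfbp1, an insulin-repressed binding protein, was higher at 48 h in every array of both organs and differed by -0.30 (SE 0.54). Of 16 insulin and growth hormone genes 3 were above 0, Igfals, the binding partner of circulating IGF (at most 2.09), Ghr, the growth hormone receptor (0.99), and Foxo3, an insulin-restrained factor (1.91), all from liver falls.

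Of 22 genes of galactose, UDP-sugar and uridine metabolism, the pathway that GalN enters, 1 was above 0 and 4 below. Those below were Ctps, Ctps2, Cda and Upp1, which make CTP or salvage and split pyrimidine nucleosides. Ctps2 read 8.92, 8.63 and 8.74 in sham kidney and 8.68, 8.79 and 8.86 at 48 h, and 7.08, 6.76 and 6.91 in sham liver and 8.79, 9.0 and 9.30 at 48 h. Liver rose 4.32-fold to the kidney level, where kidney arrays overlapped. The difference was -2.10 (SE 0.24, adjusted p = 0.000199). Cda, cytidine deaminase, and Ctps differed by -2.42 and -2.39. Upp1 (-1.56) and the member above 0, Dpyd (1.86), which starts pyrimidine breakdown, were chosen after their values were seen.

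Of 16 drug metabolism genes 5 were above 0 and 1 below, and beside the Cyp2d genes Cyp2j5, an epoxygenase, differed by 1.46 from a liver fall. Of 13 organic anion and bile acid transporters 2 were above 0 and 3 below, and Slco2b1, an uptake transporter, read 7.62, 7.32 and 6.96 in sham kidney and 8.41, 8.83 and 7.92 at 48 h, a separate rise lost in 4 of 18 fits, with a difference of 1.60 (SE 0.32, adjusted p = 0.00452). Of 16 endoplasmic reticulum chaperones 2 were above 0 and 0 below, Sdf2l1 (2.02) and Hyou1 (at least 1.05). Of 15 genes of the ATF4 response and serine synthesis 1 was above 0, Sesn2, and 1 below, Psat1. In liver, Psat1 passed the restriction only through its readings at 48 h, so it had to differ there. Of 20 oxidative phosphorylation subunits 1 was above 0, Sdha, and 4 were without array C of liver at 48 h. Of 13 citric acid cycle genes 2 were above 0, Suclg2 (0.58) and Idh2 (1.00), the latter lost in 6 of 18 fits. Of 13 immediate early genes 1 was above 0, Junb (1.65), and 1 below, Klf6 (-1.60), lost in 4 and 8 of 18 fits. Of 16 cell cycle genes 0 were called in the difference, while 3 rose in liver, the replication licensing genes Mcm3, Mcm5 and Mcm7. Leaving out array C of liver at 48 h put 2 of 15 cell cycle genes below 0, with 4 rising in liver. That removal also left 0 immediate early genes below 0 and 0 of the ATF4 list above 0, and gave 2 drug metabolism genes below 0.

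Cell type markers are given beside these lists. Of 12 macrophage markers 2 were below 0, Cd5l (-1.47) and Fcer1g (-1.48), lost in 6 and 4 of 18 fits without 1 array. Cd5l read 3.24, 3.48 and 4.18 in sham kidney and 3.48, 2.96 and 3.68 at 48 h. Those readings are at or near background, so its difference describes liver alone. The mean of the 15 macrophage markers was 7.93 to 8.79 in sham liver and 9.26 to 9.53 in liver at 48 h, and lay at 5.57 to 5.98 in kidney, where Cd68, Clec4f and Marco were at background. Macrophage genes thus moved with Icam1, Vcam1, Clec7a and Lgals3 in liver, and their part in those differences was not tested. Of 9 collecting duct markers 2 were above 0, Scnn1a, a subunit of the epithelial sodium channel, and Atp6v1b1.

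Scnn1a read 8.33, 8.65 and 8.89 in sham kidney and 9.64, 9.41 and 9.71 at 48 h, and 6.70, 6.85 and 6.65 in sham liver and 5.73, 5.14 and 4.46 at 48 h. The groups did not overlap in either organ, with only liver called, and the difference was 2.58 (SE 0.43, adjusted p = 0.00145). In 7 of the 9 markers all kidney arrays at 48 h lay above all sham arrays, against 12.1% of all genes, and the mean of the 13 collecting duct markers on the array was 8.24 to 8.40 in sham kidney and 8.84 to 9.17 at 48 h. Without array C of liver at 48 h, 4 of 9 differed.

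Among the rest, 1 of 6 hepatocyte markers was above 0 (Apoa2), 1 of 4 cholangiocyte and progenitor markers below 0 (Afp), 1 of 3 podocyte markers below 0 (Synpo) and 1 of 8 stellate cell markers below 0 (Col3a1). The kidney was called for 0 podocyte markers. The mean of Synpo was 7.48 in sham kidney and 7.17 at 48 h, against 2.93 in sham liver and 5.08 at 48 h. Its sham liver arrays, at 3.50, 2.65 and 2.64, were at or near background, so its difference came mainly from liver. Of the hepatocyte and stellate cell markers, 0 had a called difference without array C of liver at 48 h. No difference was called for 4 proximal tubule, 1 thick limb, 11 endothelial and 1 neutrophil markers. The same held for 2 lymphocyte, 2 erythroid, 1 adipocyte and 1 exocrine pancreas markers, while 0 of 5 adrenal cortex markers could be tested.

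At 24 h the same contrast called 3506 genes (35.2%), 1566 above 0 (15.7%) and 1940 below (19.5%). Both times share the sham arrays, so they are given side by side, and the change between them, in which the sham arrays cancel, is the test. It was called for 3122 genes (31.3%), 1442 upward (14.5%) and 1680 downward (16.9%). Of the 1500 genes that differed at 48 h, 764 were called at 24 h in the same direction, 71 in the other direction and 665 not at 24 h, and for 427 of those 665 the change from 24 to 48 h was called.

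Some differences were larger at 48 h than at 24 h, as in the proteasome, where 7 of 31 were below 0 and 2 above at 24 h, against 24 and 0 at 48 h, and the change was called downward for 22. Psma2 differed by -0.25 at 24 h and -1.17 at 48 h (adjusted p of the change = 0.000446), and Psmc3 by 0.08 and -1.16 (5.28e-05). Ctps2 turned from 1.28 at 24 h to -2.10 (1.29e-06), and Bco2 from 1.12 to -1.52 (1.2e-05). Afp went from -0.62 to -4.07 (0.00237), Cd36 from -0.19 to -2.60 (2.97e-05) and Fam25c from -0.54 to -3.11 (0.000169), each with the adjusted p of the change.

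Other differences were smaller at 48 h. The p53 list had 10 of 15 below 0 at 24 h and 6 at 48 h, with the change called upward for 10. Cdkn1a differed by -6.44 at 24 h and -3.45 at 48 h (adjusted p of the change = 0.0101), and Hmox1 by -4.40 and -1.48 (0.000534). Ribosome assembly genes were below 0 for 16 of 21 at 24 h and 5 at 48 h, with 11 changing upward. Sterol genes were above 0 for 15 of 19 at 24 h and 10 at 48 h, while calls above 0 over all genes went from 1566 to 488. The change was called downward for 4 of the 19 and upward for 2. Those counts lie near the shares of all genes, 16.9% and 14.5%, so they do not set this list apart.

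The differences of Serpina1b were 4.19 and 4.20, and the change was not called (adjusted p = 0.999, 95% interval from -0.35 to 0.35). Apoe and C2 differed by 0.87 and 0.91 at 24 h and by 2.10 and 2.17 at 48 h, a called change for both (0.000181 and 0.00229). Kynu and Olfml1 went the other way, from 4.97 to 3.33 and from 3.40 to 2.09.

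**Figure D5:**
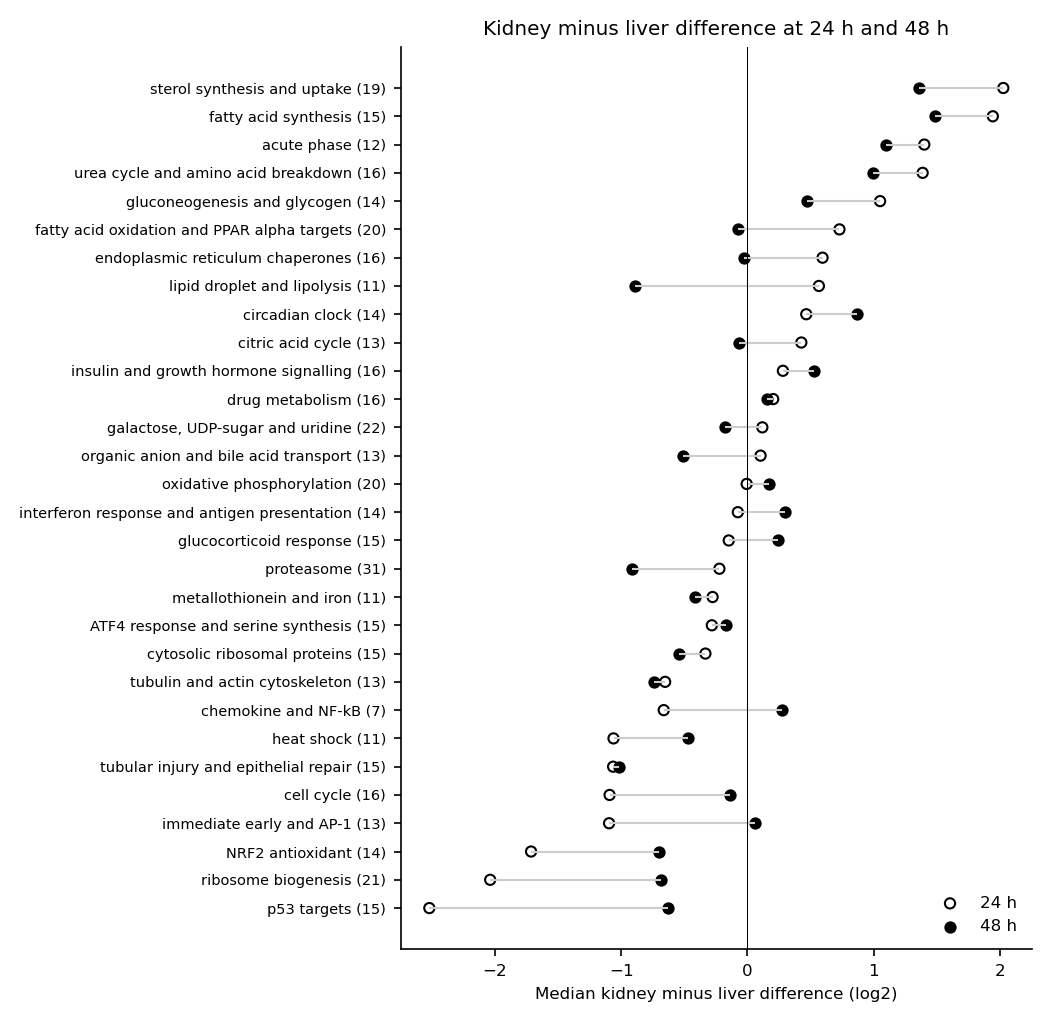
Median kidney minus liver difference (log2) of the tested members of each pathway list at 24 h (open circles) and 48 h (filled circles), with the number of tested members in parentheses. The proteasome lies at -0.22 at 24 h and -0.91 at 48 h, and the p53 list at -2.52 and -0.63.

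Of the 98 called differences of single genes named by rule, 84 were called in every fit without 1 array in which they were tested, 15 fits for Psat1 and 18 for the others. The other 14 were Cirbp, Lipe, Clock, Irf7, Idh2, Hsp90aa1, Sesn2, Junb, Klf6, Tpm1, Tubb4b, Tuba4a, Cd5l and Fcer1g. Some genes are named only because their list or class had few calls, or because their promoter is shown, and were chosen after their values were seen. They are Psmb5, Psmb6, Per2, Tef, Sdha, Mcm3, Mcm5, Mcm7, Apoa2, Synpo and Col3a1.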

How the data were processed

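Per the submitters' processing notes, the authors normalized the Affymetrix arrays with gcRMA in the affy framework. The deposited series table holds log2 expression values, used here as deposited. The gcRMA version is not given in the sources used here. The labels can be read as pooling RNA of several mice, and each array was assumed here to be 1 animal. The label field lists Cy3, though the array has 1 colour.

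Probe sets naming 1 gene (34945 of 45101) were kept and the brightest set stood for its gene. A model of 6 group means over all 18 arrays was fitted with limma 3.58.1 in R 4.3.3 (intensity trend, empirical Bayes), with Benjamini-Hochberg adjustment over 9960 genes. The rank product test that the study's design names compares 2 groups and has no term for a difference between organs. The scripts were tested on simulated data. Alternatives covered the restriction, probe set summary, scaling, variance model, array weights, 12 arrays only, array letter as a block, and each array left out.

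The arrays, gene lists and naming rule were chosen with earlier results of these data known. Named genes were the largest 8 each way among called differences above background with arrays apart in the more changed organ, the largest 5 opposite each way, up to 4 each way called alike in both organs with and without a called difference, up to 3 by smallest p in lists with 2 or more calls, and 16 panel genes. Promoter windows came from RefSeq.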

Additional observations from a re-analysis of the deposited data

Results flagged for a closer look

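The organs' changes from sham to 48 h differed by a test of the difference itself at 1500 genes. The effects of time and GalN cannot be told apart in these changes. The named genes with opposite calls follow, with their differences on the log2 scale. Rising in kidney and falling in liver were Serpina1b (at least 4.20), Kynu (at least 3.33), C2 (2.17), Apoe (2.10) and Olfml1 (at least 2.09). Those that fell in kidney and rose in liver were Fam25c (-3.11), Tm4sf4 (at most -2.99), Nhp2 (-1.97), Bco2 (at most -1.52) and Atp6v1h (-1.24). Called opposite in fits that each left out 1 of 18 arrays, Kynu, C2 and Atp6v1h held in 18, Fam25c in 16, Nhp2 in 15, Serpina1b and Olfml1 in 14, Apoe and Tm4sf4 in 13 and Bco2 in 9.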

How the results depend on the processing

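The count of 1500 differences was 1284 to 1680 under the other planned settings, except 4499 with array weights, and 1008 to 1951 with 1 array left out. With the array letter as a replicate block it was 1415, with the putative animal as a random block 1680 (consensus correlation 0.0664) and as a fixed block 1284. Deviations of same-letter liver and kidney arrays correlated at 0.277, 0.0476 and 0.310 in sham. At 24 h the values were -0.0175, 0.0253 and -0.077, and at 48 h 0.0194, 0.103 and 0.0793. With 3 arrays per group these values cannot settle whether a letter marks the same mouse in both organs. The letters were not taken as pairs in the main fit. With 1 array left out, kidney calls numbered 46 to 187, liver calls 1746 to 2703, the 24 h difference 2923 to 4131 and its change to 48 h 2639 to 3408. Under the same removals, genes opposite with kidney up numbered 6 to 15 and with kidney down 2 to 27, and, with 1 of the 12 arrays of the contrast left out, called list members numbered 2 to 7 for tubular injury, 4 to 12 for ribosome assembly, 4 to 8 for the urea cycle and 2 to 5 for the clock. Array weights gave 219 opposite genes with kidney up and 433 with kidney down, median centring 17 and 4, with 0 ribosomal proteins, quantile normalization 10 ribosomal proteins, and the 12 arrays alone 17 opposite genes with kidney down and 2 clock genes. Genes with a called difference and a call in kidney alone numbered 248 higher and 227 lower with array weights, against 33 and 25 in the main fit. The cause of these shifts was not tested. Groups of 3 arrays, background readings and 1 aberrant array limit these results.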
